A study of Homo sapiens with 2 samples.

Results

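Genes of 10 RNA-binding proteins that set epithelial or mesenchymal splicing patterns were followed in a drug-sensitive and a drug-resistant lung cancer line. They were taken by gene symbol from the 20985 genes of the deposited table, and all 10 were found: ESRP1, ESRP2, RBM47, RBFOX2, QKI, MBNL1, MBNL3, PTBP1, CELF2 and SRSF1. The parental group was HCC827, an established lung adenocarcinoma line whose EGFR gene carries an activating mutation. The resistant group was HCC827 ZDR3, derived from it by culture in gefitinib, an inhibitor of the EGFR kinase, from 10 nM with a 3-fold rise each month up to 1 µM. The labels state that 3 colonies were taken from the selected cells, and do not state whether ZDR3 is a single clone or whether the drug was present at harvest. Each group held 1 library of polyadenylated RNA, so the spread between cultures is unknown, no test was possible and no p-value is given. Every difference is one between these libraries.

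Alternative splicing joins different exons of one gene into different messages, and RNA-binding proteins that sit beside an exon decide whether it is kept. ESRP1 and ESRP2 are restricted to epithelial cells, where they hold genes such as FGFR2, CD44, CTNND1 and ENAH in their epithelial isoforms. In epithelial-mesenchymal transition (EMT) ESRP levels commonly fall and proteins such as RBFOX2 and QKI direct many of the mesenchymal isoforms. The table has 1 value per gene, so isoforms were not measured here and only the amounts of the regulators' own messages are described.

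Levels are normalised reads, with 1 unit equal to 143 reads in parental HCC827 and to 138 reads in ZDR3. These levels are not corrected for gene length. The log2 ratio compares ZDR3 with parental cells after addition of 1 unit to each level, which understates the difference of low genes, and a plain ratio is given beside it with an exact 95% interval (Clopper-Pearson) that covers counting error only. A gene was called expressed at a level of at least 1 in either library, and 13777 genes met this. Counts of genes lower or higher by 2-fold or more rest on the log2 ratio with its added unit. A low gene can thus differ 2-fold in plain ratio and not be counted. The libraries held 257192597 and 243549866 gene reads. All 7 epithelial markers (CDH1, EPCAM, KRT8, KRT18, KRT19, CLDN4 and CLDN7) were expressed in both libraries and lower in the resistant one, with log2 ratios from -4.93 to -1.43. The 5 mesenchymal markers were mixed: VIM (23.5 and 1289), CDH2 (0.672 and 58.4), ZEB1 (6.10 and 106) and SPARC (0.0630 and 1.17) were higher in ZDR3 cells, and FN1 (3420 and 506) was lower. The defining markers of other cell types were near 0 in both libraries for most genes. The summed level was 9.54 in parental and 1.95 in ZDR3 cells over 9 fibroblast genes, with COL3A1, THY1 and POSTN at 0 in both, and 0.553 and 0.0945 over 4 endothelial genes. Over 9 leukocyte genes it was 160.1 and 322, nearly all of it CD68 at 155 and 320, and the leukocyte gene PTPRC was at 0 and 0.233. Over 9 neuronal and muscle genes it was 82.1 and 157, nearly all of it TUBB3 at 78.7 and 155. The part that these marker differences have in the results was not tested.

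Of the 10 regulators 4 had a ZDR3 level 2-fold or more below the parental one, and 0 had one 2-fold or more above it. Among all expressed genes 9.68% were lower by 2-fold or more and 10.6% were higher by 2-fold or more. The median log2 ratio of the 10 genes was -0.41, beside -0.03 for all expressed genes. The lower genes were ESRP1, RBM47, MBNL3 and CELF2, of which ESRP1 is an epithelial regulator while MBNL3 and CELF2 are not restricted to epithelia. The mesenchymal regulators RBFOX2 and QKI were within 2-fold, with log2 ratios of -0.21 and 0.43.

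**Figure D1:**
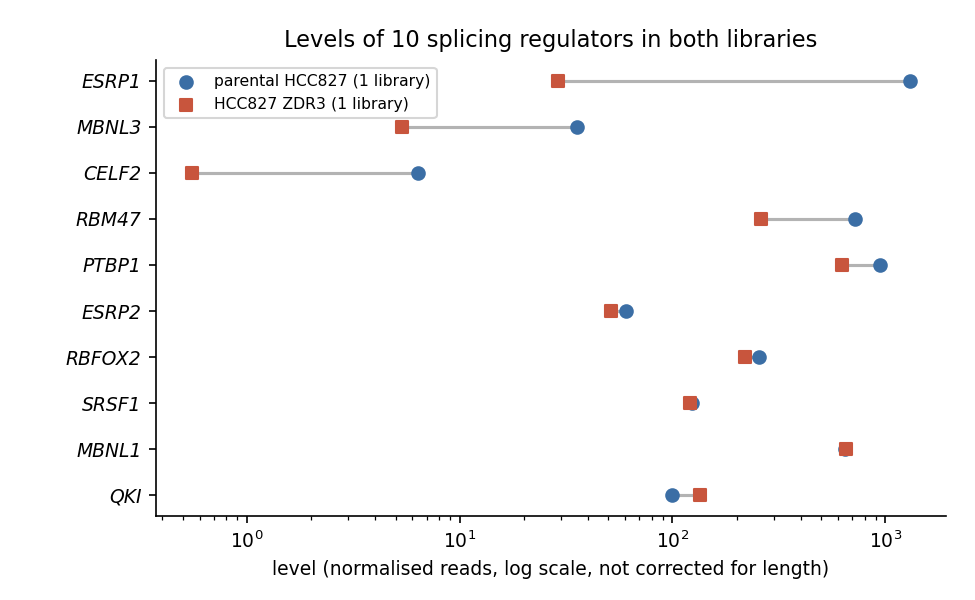
Level of each regulator in normalised reads (log scale, not corrected for length) in the parental (blue circles) and resistant (red squares) library, 1 library each, ordered by log2 ratio. ESRP1 has the widest gap, from 1305 to 28.9, while SRSF1 and MBNL1 almost coincide.

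Promoter windows were searched for the letters CACCTG, an E-box that the ZEB and SNAI repressors can bind, and the 2 windows that hold it are printed to show where it lies. They were picked by this match, and binding was not measured. The windows are from RefSeq on GRCh38.p14 and run from 250 bases before to 50 bases after an annotated start. Capitals mark the E-box, which stands at bases 43 to 48 of the RBM47 window and at bases 265 to 270 of the CELF2 window, counted from the 5′ end. The RBM47 window lies on the minus strand at chr4:40514532-40514831 and the CELF2 window on the plus strand at chr10:11017622-11017921.
RBM47: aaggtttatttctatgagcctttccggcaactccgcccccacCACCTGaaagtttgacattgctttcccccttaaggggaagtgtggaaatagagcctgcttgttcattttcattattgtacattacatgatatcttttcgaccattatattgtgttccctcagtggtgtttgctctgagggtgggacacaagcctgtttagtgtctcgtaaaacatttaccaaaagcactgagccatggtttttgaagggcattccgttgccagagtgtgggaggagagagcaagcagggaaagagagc
CELF2: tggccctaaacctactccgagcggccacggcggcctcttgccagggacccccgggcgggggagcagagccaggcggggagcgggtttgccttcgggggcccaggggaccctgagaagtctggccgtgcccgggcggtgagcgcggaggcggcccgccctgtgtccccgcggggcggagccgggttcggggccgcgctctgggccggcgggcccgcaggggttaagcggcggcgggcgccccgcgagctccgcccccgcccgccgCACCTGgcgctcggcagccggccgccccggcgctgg

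RBM47 had 4 such windows and CELF2 had 10, for alternative starts that in part overlap, and 1 window of each held the E-box. MBNL3 had 4 windows without it. Over the 24 windows found for RBM47, CELF2, MBNL3, MBNL1, PTBP1 and SRSF1 the E-box was in 2, or 8.33%, searched as CACCTG and CAGGTG, its reverse complement. The share was 20.6% among all 35116 RefSeq windows of 300 bases. The Grainyhead motif AACCGGTT, which reads the same on both strands and is bound by the epithelial factor GRHL2, was in 0 of the 24 and in 0.134% of all windows. With a motif this rare, 24 windows are too few for its absence to say anything about these genes. Which start the cells use was not measured. No window was found for ESRP1, ESRP2, RBFOX2 and QKI.

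ESRP1 (ENSG00000104413, chromosome 8), the main epithelial splicing factor, was at 1305 in parental and 28.9 in ZDR3 cells, from 186380 and 3982 reads. The resistant library was the low one, by 45.1-fold (95% interval 43.7 to 46.5), with a log2 ratio of -5.45. Only 0.327% of the expressed genes had a lower log2 ratio. In a bulk library fewer expressing cells and less message per cell cannot be told apart.

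ESRP2 (ENSG00000103067, chromosome 16), the close relative that shares many of its target exons, was at 60.4 in parental and 51.7 in ZDR3 cells. The plain ratio was 0.856 (0.830 to 0.884) and the log2 ratio -0.22, and 37.1% of the expressed genes had a lower one. The ESRP genes thus differed from each other in these libraries: one was lower by a factor of 45.1 and the other lay in the bulk of all genes. Exons of ESRP2 overlap the opposite-strand gene NFATC3, which had 13734 and 12317 reads, and since the strand setting of the counting is not known, reads of the shared stretch cannot be told apart.

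Per kb of exon, the level of ESRP1 was 337 in parental and 7.48 in ZDR3 cells, and that of ESRP2 15.7 and 13.5. ESRP1 made up 95.5% (95.5 to 95.6) of the ESRP message per length in the parental and 35.7% (34.8 to 36.6) in the resistant library. ESRP1 exceeded ESRP2 by 21.4-fold in the parental library, and ESRP2 exceeded ESRP1 by 1.80-fold in the resistant library. The summed ESRP level per kb was 353 in parental and 20.95 in ZDR3 cells, 16.8-fold lower. These shares carry the limit given for reads that ESRP2 and NFATC3 may share.

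**Figure D2:**
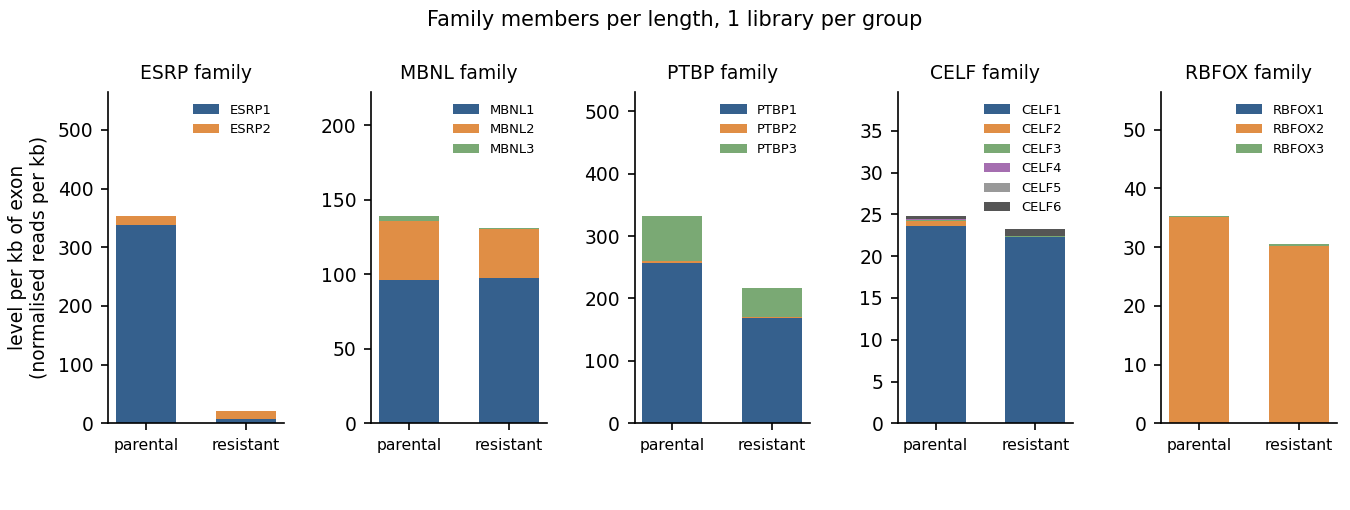
Level per kb of merged exon length (normalised reads per kb, linear axes that differ between panels) of the genes of 5 families, stacked, in the parental and the resistant library, 1 library each. The ESRP sum is 353 and 20.95, with ESRP2 the larger part in ZDR3 cells, while the MBNL, CELF and RBFOX sums differ little.

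RBM47 (ENSG00000163694, chromosome 4) is an RNA-binding protein that acts on splicing and message stability and is lost in some carcinomas. It was at 719 in parental and 259.7 in ZDR3 cells, from 102790 and 35738 reads. The resistant level was 2.77-fold lower (2.74 to 2.80), with a log2 ratio of -1.47, and 5.18% of the expressed genes had a lower one. RBM47 was the third most abundant of the 10 genes per kb in both libraries, at 128 and 46.1. Of the genes closest to it in sequence, SYNCRIP was at 163 and 174 (log2 ratio 0.10), A1CF, the cofactor of APOB message editing, was below the expression minimum at 0.287 and 0.145, and RBM46 had no reads in either library.

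RBFOX2 (ENSG00000100320, chromosome 22), which binds GCAUG elements beside exons and promotes many mesenchymal exons, was at 254 in parental and 219 in ZDR3 cells. The plain ratio was 0.861 (0.848 to 0.874), so its level was slightly lower in ZDR3 cells. The log2 ratio was -0.21, or -0.015 relative to the median of its chromosomal neighbours. RBFOX2 was the only RBFOX gene expressed. RBFOX1 had 16 and 0 reads, and RBFOX3, a neuronal gene, was at 0.714 and 0.937. RBFOX2 made up 99.4% and 99.1% of the RBFOX level per kb.

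QKI (ENSG00000112531, chromosome 6), a STAR-family protein that controls mesenchymal exons and the formation of circular RNAs in EMT, had the highest log2 ratio of the 10. It was at 99.02 in parental and 134 in ZDR3 cells. The plain ratio was 1.35 (1.325 to 1.38) and the log2 ratio 0.43. Since 76.5% of the expressed genes had a lower log2 ratio, this lay inside the bulk of all genes.

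MBNL1 (ENSG00000152601, chromosome 3) and MBNL3 (ENSG00000076770, chromosome X) belong to the muscleblind family, of which MBNL1 favours splice forms of differentiated cells. MBNL1 was at 646 in parental and 655 in ZDR3 cells, a plain ratio of 1.015 (1.006 to 1.024). MBNL3 was at 35.5 and 5.36, from 5068 and 738 reads, which is 6.61-fold lower (6.12 to 7.16) with a log2 ratio of -2.52. MBNL2, the third gene of the family, was at 193 and 159 (log2 ratio -0.28). MBNL3 made up 2.15% of the MBNL level per kb in parental and 0.346% in ZDR3 cells, and the family sum was 139 and 131 per kb.

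CELF2 (ENSG00000048740, chromosome 10), a regulator that often acts against MBNL proteins, was the least abundant of the 10 in both libraries. It was at 6.38 in parental and 0.552 in ZDR3 cells, from 911 and 76 reads, and so was below the expression minimum in the resistant library. The resistant level was 11.5-fold lower (9.13 to 14.8), while the log2 ratio with its added unit was -2.25. CELF1, the widely expressed member, was at 211 and 199.8 (log2 ratio -0.08, or 0.14 relative to its neighbours) and made up 95.1% and 95.8% of the CELF level per kb. CELF6 was low, at 1.15 and 2.98 (0.89), and CELF3, CELF4 and CELF5 were below the minimum in both libraries.

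PTBP1 (ENSG00000011304, chromosome 19), a repressor of exons beside polypyrimidine tracts, was at 949 in parental and 626 in ZDR3 cells. The resistant level was 1.52-fold lower (1.505 to 1.531), with a log2 ratio of -0.60. Its relatives had nearly the same log2 ratio: PTBP2 was at 31.7 and 20.6 (-0.60), and PTBP3, listed under its older symbol, was at 598 and 384 (-0.64). The 3 genes together were at 332 and 217 per kb, and PTBP1 made up 77.3% and 77.8% of that sum.

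SRSF1 (ENSG00000136450, chromosome 17), an SR protein that activates exons and is known as a splicing oncogene, was at 124 in parental and 121 in ZDR3 cells. The plain ratio was 0.973 (0.953 to 0.994) and the log2 ratio -0.04, close to the median of all expressed genes. GENCODE release 29 names 1 pseudogene after SRSF1 and 1 after PTBP1, and how reads shared with these copies were counted is not known.

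**Figure D3:**
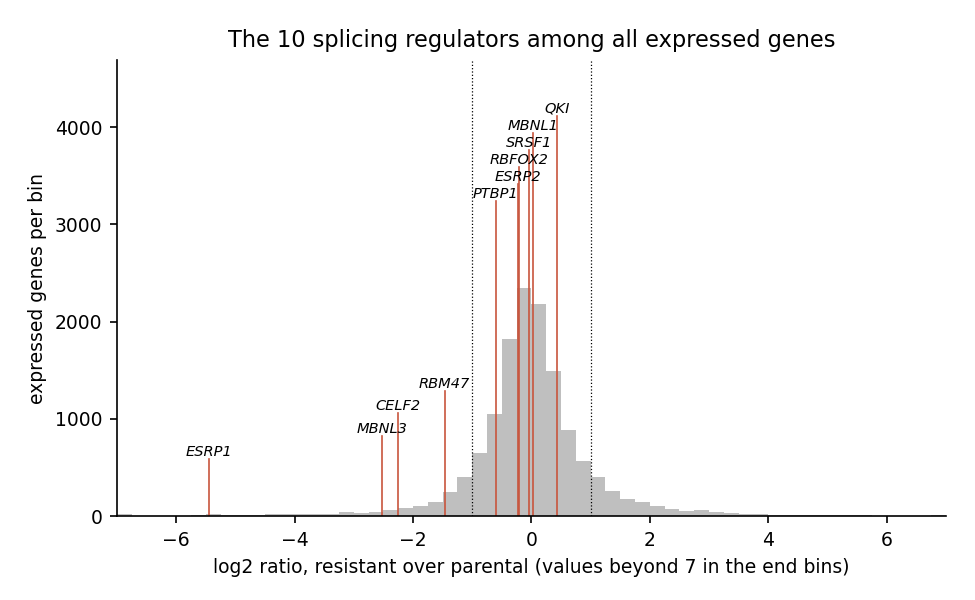
Log2 ratio of the 10 regulators (red lines) over a histogram of the 13777 expressed genes in bins of 0.25, with dotted lines at 2-fold lower and higher. ESRP1, MBNL3, CELF2 and RBM47 lie left of the lower line and the other 6 within the bulk of all genes; the heights of the red lines serve the labels alone.

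In the order of the regulators per kb of exon, ESRP1 differed the most. In the parental library the order was ESRP1 (337), PTBP1 (257), RBM47 (128), MBNL1 (96.3), SRSF1 (38.7), RBFOX2 (35.1), ESRP2 (15.7), QKI (6.26), MBNL3 (2.996) and CELF2 (0.610). In the resistant library ESRP1 was at rank 8 rather than 1, at 7.48, and PTBP1 (169), MBNL1 (97.8) and RBM47 (46.1) led. SRSF1 followed at 37.7, RBFOX2 at 30.2, ESRP2 at 13.5 and QKI at 8.48, with MBNL3 (0.453) and CELF2 (0.0528) last. Whether neighbours in this order differ beyond the spread between cultures cannot be said from 1 library each. With the longest annotated transcript in place of merged exons as length, QKI (14.2) stood just above ESRP2 (13.6) in the resistant library.

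The genes beside the 4 lower regulators were compared with them, since neighbours can share a difference between lines. The median log2 ratio over 20 expressed neighbours to each side was 0.08 around ESRP1, -0.28 around MBNL3 and -0.21 around CELF2. Relative to these medians the log2 ratio was -5.52 for ESRP1, -2.24 for MBNL3 and -2.04 for CELF2. None of the 40 neighbours of MBNL3 or of CELF2 was as low as the gene itself, and 1 of the 40 around ESRP1 was lower, CALB1 at -9.01. Of the 40 neighbours those lower and higher by 2-fold or more numbered 5 and 7 around ESRP1, 8 and 4 around RBM47, 1 and 3 around MBNL3, and 1 and 5 around CELF2. The shares over all expressed genes were 9.68% lower and 10.6% higher. Around RBM47, 5 neighbours were lower than the gene itself. The median of all 40 was -0.40, and relative to it RBM47 was at -1.07.

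**Figure D4:**
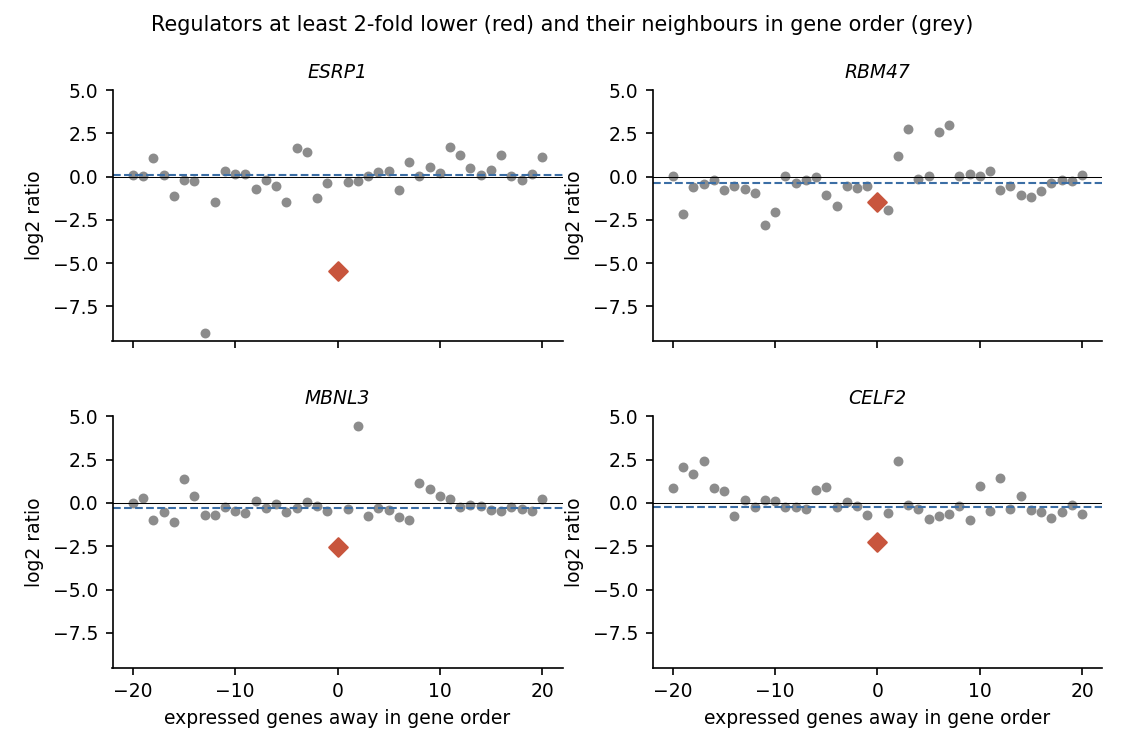
Log2 ratio (resistant over parental) of the 4 regulators lower by 2-fold or more (red diamonds) and of 20 expressed neighbours to each side in gene order (grey points), with the neighbours' median as a dashed line. ESRP1, MBNL3 and CELF2 stand well below their neighbours' medians of 0.08, -0.28 and -0.21, and RBM47 is nearer to its median of -0.40.

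Transcription factors that set epithelial or mesenchymal identity differed in both directions. Of 13 expressed EMT repressors and epithelial transcription factors 7 were lower and 3 higher by 2-fold or more, beside 9.68% and 10.6% of all expressed genes. Several of these met the minimum level of 1 only in the library where they were high. ZEB2 and SNAI2 were below it in parental cells, and GRHL2, EHF, OVOL1 and OVOL2 in ZDR3 cells. The median log2 ratio of the list was -1.28, and it was -0.76 with no minimum level, -0.84 after subtraction of the neighbours' median and -1.91 with a minimum level of 5. This median pools repressors with epithelial factors. The repressors that were higher were ZEB1, known to repress ESRP genes in other cells, at 6.10 in parental and 106 in ZDR3 cells (3.91), ZEB2 at 0.455 and 18.3 (3.73) and SNAI2 at 0.854 and 5.41 (1.79). SNAI1 was not, at 3.95 and 1.93 (-0.76, and 2.05-fold lower by plain ratio), nor was TWIST2, at 4.59 and 4.04 (-0.15). TWIST1 had 25 and 0 reads and was below the expression minimum in both libraries. The epithelial factors OVOL1 and OVOL2, which repress ZEB genes, were lower. OVOL1 was at 10.8 and had no reads in the resistant library, at least 495-fold lower against a floor of 3 reads in that library, and OVOL2 was at 8.20 and 0.538 (-2.58). GRHL2, an activator of epithelial genes, was at 89.3 and 0.0581, and EHF had a log2 ratio of -8.31. Not every epithelial factor of the list was lower. KLF4 was higher but within 2-fold, at 20.04 in parental and 25.83 in ZDR3 cells (0.35).

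A list of 36 other splicing regulators and their relatives, many of them restricted to certain tissues, had 23 expressed genes. Of these 4 were higher and 0 lower by 2-fold or more in the log2 ratio, where 10.6% and 9.68% of all expressed genes were. By plain ratio RBM11, at 2.11 and 0.908, was also 2.32-fold lower (1.88 to 2.88). CELF6 was also higher, by a plain ratio of 2.60 (2.16 to 3.13). The median log2 ratio of the list was -0.08 (0.08 after subtraction of the neighbours' median). ELAVL2, a neuronal Hu protein, was at 1.55 in parental and 17.8 in ZDR3 cells (log2 ratio 2.88, plain ratio 11.5 with an interval of 9.98 to 13.2). RBM24, a muscle splicing factor, was at 0.441 and 4.16 (1.84). SRRM3, an activator of neuronal microexons, was at 3.10 and 9.64 (1.38), and RBMS3, a relative of the MSSP proteins that bind single-stranded nucleic acids, at 3.81 and 9.08 (1.07). ELAVL2, RBM24, SRRM3 and RBMS3 were low genes in both libraries. RBM24 met the minimum level of 1 only in ZDR3 cells, and RBM11 only in parental cells.

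The general splicing machinery was within 2-fold almost throughout. None of 12 SR protein genes, 22 hnRNP genes or 30 core spliceosome genes differed by 2-fold or more. Their median log2 ratios were 0.23, -0.10 and -0.18, and 0.19, -0.08 and -0.04 after subtraction of the neighbours' median. Of all expressed genes 9.68% were lower and 10.6% higher by 2-fold or more. The largest log2 ratios were SRSF2 (0.79), TRA2A (-0.45), SRSF3 (0.43) and SRSF9 (-0.40) among the SR proteins, and HNRNPF (-0.59), HNRNPDL (0.53), HNRNPM (0.52) and HNRNPD (0.52) among the hnRNPs. HNRNPM, which promotes mesenchymal exons against ESRP1, was at 339 in parental and 488 in ZDR3 cells. HNRNPM, HNRNPD and HNRNPDL lay among neighbours with medians of 1.33, 1.02 and 1.02, and relative to these their direction turned, to -0.81, -0.50 and -0.50. In the core spliceosome they were SNRPG (-0.48), SF1 (0.40), U2AF1 (0.39) and SF3B2 (-0.38). Of 9 kinases that phosphorylate SR proteins 1 was lower by 2-fold or more, near the share of all expressed genes. It was SRPK3 at 8.71 and 3.53 (-1.10, or -0.76 relative to its neighbours), followed by CLK3 (-0.90), SRPK2 (-0.45) and SRPK1 (-0.38).

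The total message of genes with exons under ESRP control was also read. Of 16 expressed genes 1 was lower and 0 higher by 2-fold or more, beside 9.68% and 10.6% of all expressed genes, and the median was -0.03 and lay between -0.13 and 0.01 under the alternatives. OSBPL3 was at 264 in parental and 104 in ZDR3 cells (-1.33, or -0.98 relative to its neighbours), and MLPH (-0.90, or -1.12 relative to its neighbours) and SCRIB (-0.69) followed. CTNND1, the p120 catenin gene, was at 10633 and 5676 (-0.91), while CD44 was at 2627 and 2749 (0.07, or -0.26 relative to its neighbours) and ENAH at 263 and 309 (0.23). FGFR2, whose IIIb and IIIc exons are the best known ESRP target, had 78 and 18 reads and was below the expression minimum in both libraries.

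**Figure D5:**
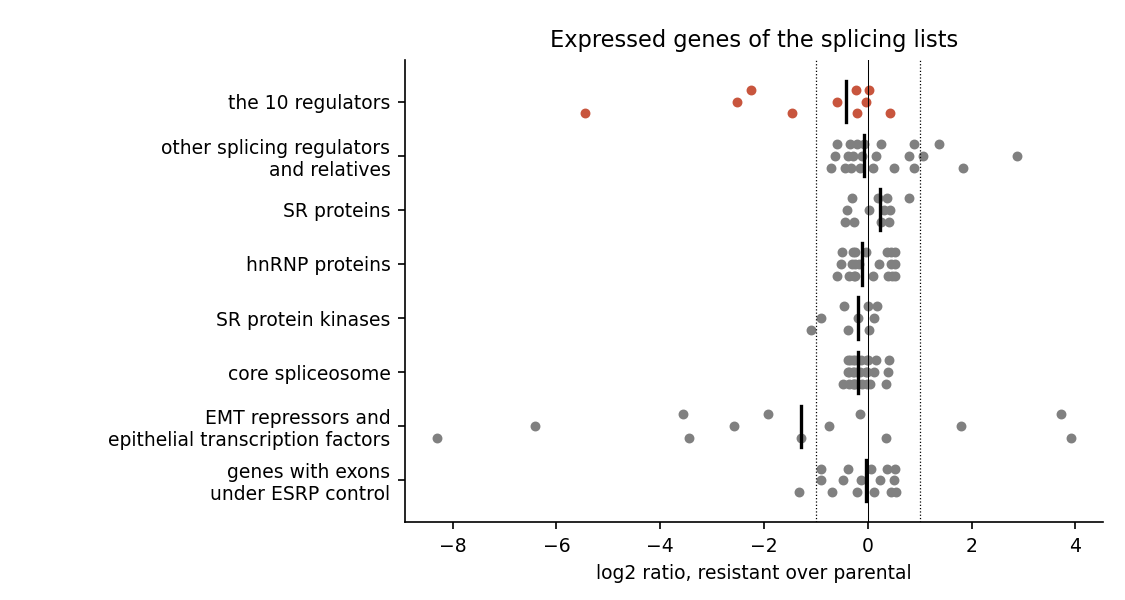
Log2 ratio (resistant over parental) of the expressed genes of each list, 1 point per gene spread vertically for legibility, with the list's median as a black bar and dotted lines at 2-fold lower and higher. SR protein, hnRNP and core spliceosome genes stay between the dotted lines, while the 10 regulators (red) reach -5.45 on the lower side and the transcription factors spread to both sides.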

How the data were processed

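Polyadenylated RNA of 1 parental and 1 resistant culture was sequenced by Illumina HiSeq, per the labels' protocols. The submitters' processing notes name TopHat. The sources used here do not state its version, the build, the counting tool or the strand setting. The authors deposited log2 values, 1 per gene and library, under a name that calls them RPKM. Back-transformed, they were whole multiples of 1 step per library (100% of 17090 and 17049 genes with 1 to 100000 reads, within 0.1 read), so they are reads times 1 factor per library and not RPKM. Genes without reads stood at 0.9 reads and were set to 0. The column whose name ends in Prim was taken for the parental line, as ZDR3 heads the other.

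The log2 ratio used a pseudocount of 1. With 1 library per group no count model was run. Lengths were merged exons of the GENCODE release 29 basic set. Neighbours were taken from its gene order, which need not be the authors' annotation, and 13476 expressed genes had a position. Of the list entries 3 were matched by Ensembl identifier under older symbols and 2 were not found. Besides the 10 regulators and their family genes, up to 4 expressed genes per list with the largest absolute log2 ratio were named, with the chief EMT repressors, GRHL2, OVOL1, OVOL2, FGFR2, CD44, CTNND1 and ENAH. TWIST1, TWIST2 and KLF4 were added after their values were seen. The regulators and lists were chosen with earlier results of these data known. Alternatives were other pseudocounts, scalings, minimum levels, subtraction of neighbours and, chosen after seeing the data, another gene length. Python 3.11.15, pandas 2.3.3 and SciPy 1.17.1 were used.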

Additional observations from a re-analysis of the deposited data

How the results depend on the processing

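The numbers of regulators at least 2-fold lower (4) and higher (0) were the same with a pseudocount of 0.1 or 5, with each of 3 scalings, with either other minimum level and after subtraction of the neighbours' median. The minimum levels could not change these numbers, since all 10 genes reached a level of 5 in at least 1 library. The scalings multiplied the resistant levels by only 1.017 to 1.027. They could hardly change the numbers either, as the genes nearest to a log2 ratio of -1 were RBM47 (-1.47) and PTBP1 (-0.60). The median log2 ratio of the 10 genes was -0.37 when scaled by the median ratio and -0.36 after subtraction of the neighbours' median. Over these alternatives the log2 ratio ranged from -5.52 to -5.27 for ESRP1, from -2.70 to -1.97 for MBNL3, from -1.47 to -1.07 for RBM47 and from -3.31 to -1.03 for CELF2, whose lowest and highest values came from the pseudocounts of 0.1 and 5. The sign of MBNL1 and of SRSF1 turned after subtraction of the neighbours' median, to -0.23 and 0.11. With a pseudocount of 5 the number of all expressed genes at least 2-fold lower was 865 in place of 1333, and at least 2-fold higher 901 in place of 1463. Depth limits CELF2 the most, with 76 reads in the resistant library. No paired analysis was possible because each group held 1 library.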

Other observations

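Some further splicing regulators had higher levels in the resistant library without reaching 2-fold. They were chosen after their values were seen, and from the higher side only. Of the 23 expressed genes of their list 12 had a log2 ratio below 0 and 11 one above 0. The lowest was RBM11 at -0.70. ELAVL1, the widely expressed Hu protein that stabilises messages, had a level of 116 in parental and 216 in ZDR3 cells, a log2 ratio of 0.89. Its chromosomal neighbours had a median of 1.36, and relative to it ELAVL1 was lower, at -0.47. NOVA1, a neuronal splicing factor, was at 10.4 and 18.9 (0.80), and KHDRBS3, a STAR-family relative of QKI, at 22.6 and 32.4 (0.50). None of these has a replicate check.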
